A study of Arabidopsis thaliana with 6 samples.

Results

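The WRKY genes of Arabidopsis thaliana were examined for binding of the stem cell regulator WUSCHEL (WUS) and for the change of 2 histone marks after its induction. Members were all genes whose symbol or synonym in the annotation was WRKY followed by a number, and 71 of the 27444 protein-coding genes on the 5 nuclear chromosomes met this rule. Of these, 67 carried such a symbol, and the remaining 4 were found by a synonym: TTG2 (WRKY44), TTR1 (WRKY16), ABO3 (WRKY63) and ZAP1 (WRKY1). The immune receptor gene RRS1 is listed only as ATWRKY52 and was therefore not a member. The gene window of each member ran from 2500 bp before its transcription start site (TSS) to 1000 bp past its end.

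ChIP-seq was performed on whole seedlings 5 days after germination, after 2 h in 25 µM dexamethasone. This concentration is that of the labels, while a lower one stands in the methods. WUS-GR seedlings carried pUBI10::mCherry-GR-linker-WUS, a fusion of WUS with a fluorescent protein and a glucocorticoid receptor fragment that holds it outside the nucleus until dexamethasone is given, driven by a ubiquitin promoter in nearly all tissues rather than in the stem cell niche alone. Col-0 seedlings, the wild type without this transgene, received the same dexamethasone treatment. Chromatin was recovered with RFP-trap, which binds mCherry, or with antibodies to acetylated H3 lysines 9 and 14 (H3K9/K14ac, a mark of active genes) or to trimethylated H3 lysine 27 (H3K27me3, the Polycomb mark of silent genes).

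Each genotype and pull-down was represented by 1 list of genomic windows, in which that genotype had more signal than the other. Windows were 100 bp long for RFP-trap and 500 bp long for the histone marks, and runs of adjacent windows were joined to regions. Histone regions of the WUS-GR list are called gained and those of the Col-0 list lost, after removal of gained and lost regions closer than 73 bp to each other. The lists hold positions without scores or counts, so the depth is unknown, and with 1 list per group there is no replicate error and no test. The covered length of a gene window, in bp, is the only graded value, and a 95% Wilson interval on a share covers counting error only. Over the whole genome the WUS-GR list held 10087 regions and the Col-0 list 580. There were 5487 gained and 5110 lost H3K9/K14ac regions, and 671 gained and 2570 lost H3K27me3 regions. A member with a WUS-GR RFP-trap region in its gene window is called bound here, which says nothing of its expression.

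WRKY proteins are plant transcription factors that recognise the W-box, a short DNA element with the core TTGAC, through a domain that begins with the amino acids that give the family its name. They are best known from immunity, where they act downstream of MAP kinase cascades and salicylic acid, and also from senescence, nutrient supply, flowering time, trichomes and seeds. Many WRKY promoters contain W-boxes themselves, and members of the family regulate each other. The family is divided into group I, whose proteins mostly have a pair of WRKY domains, groups IIa to IIe, and group III. The defining amino acids were counted in coding sequences read from the genome, with arginine and lysine allowed to replace each other. By this count 12 of the 15 group I members encoded 2 copies and 3 (WRKY10, WRKY19 and WRKY45) encoded 1 copy. These 3 were kept in group I, as in the classification used. All 56 members of groups II and III encoded 1 copy.

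WRKY8 and WRKY28 are shown first for a sequence that they share, picked out after the regions had been read. These closely related group IIc genes, known from defence against a virus and from salicylic acid synthesis and the embryo sac, each had a pair of G-boxes (CACGTG, a palindrome bound by bZIP and bHLH factors) inside a WUS-GR region. Both pairs started 51 bp apart. All 5 member regions with 2 or more CACGTG at most 70 bp apart are shown, in the sense direction of the gene with 25 bp on either side. Capitals mark CACGTG and the W-box words TTGACC or TTGACT, or GGTCAA or AGTCAA where the word lies on the opposite strand.
WRKY8 (chr5:18804670-18804776, minus strand): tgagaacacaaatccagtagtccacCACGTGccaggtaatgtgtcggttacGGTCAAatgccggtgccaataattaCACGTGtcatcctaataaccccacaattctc
WRKY28 (chr4:10060212-10060318, plus strand): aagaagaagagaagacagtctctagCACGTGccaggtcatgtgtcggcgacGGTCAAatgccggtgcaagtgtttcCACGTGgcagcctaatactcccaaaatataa
WRKY23 (chr2:19408622-19408725, minus strand): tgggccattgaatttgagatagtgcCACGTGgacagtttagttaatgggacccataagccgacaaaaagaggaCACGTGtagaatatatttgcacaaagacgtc
WRKY39 (chr3:1269040-1269160, minus strand): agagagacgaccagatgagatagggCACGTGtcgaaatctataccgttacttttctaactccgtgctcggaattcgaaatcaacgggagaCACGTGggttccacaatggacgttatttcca
WRKY64 (chr1:24831282-24831381, plus strand): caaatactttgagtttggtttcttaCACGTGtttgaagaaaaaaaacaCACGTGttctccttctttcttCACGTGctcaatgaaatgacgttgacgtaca
From the first to the last G-box, WRKY28 and WRKY8 were identical at 49 of 57 bases (86%), with a longest identical run of 18 bases and the same reverse W-box between the G-boxes. A pair of G-boxes at the spacing of 51 bp was present in 11 of the 10087 WUS-GR regions, those of WRKY8 and WRKY28 included. The spacing was read from these genes and no other single spacing was counted, so whether it is rare was not tested. The G-box pair began at -977 bp from the TSS of WRKY28 and at -695 bp from that of WRKY8. WRKY23, an auxin-inducible group IIc gene of the root and embryo, had its pair 48 bp apart, WRKY39 of group IId had one 65 bp apart, and WRKY64 of group III had 3 G-boxes at spacings of 23 and 21 bp. Such close G-boxes were found in 5 of 81 member regions (6.17%) and in 317 of all WUS-GR regions (3.14%).

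A further set of stretches shows W-boxes inside WUS-GR regions. The first 3 lie before the TSS. They come from WRKY60, whose promoter is known to be a target of the WRKY18 and WRKY40 proteins, from the camalexin and necrotroph resistance gene WRKY33, and from WRKY15, a gene of osmotic stress and cell expansion. The last 3 lie in introns of the group IId genes WRKY7, WRKY11 and WRKY17, which encode calmodulin-binding repressors of defence. Capitals mark the same words as above, and each stretch is again in the sense direction.
WRKY60 (chr2:10629001-10629200, plus strand): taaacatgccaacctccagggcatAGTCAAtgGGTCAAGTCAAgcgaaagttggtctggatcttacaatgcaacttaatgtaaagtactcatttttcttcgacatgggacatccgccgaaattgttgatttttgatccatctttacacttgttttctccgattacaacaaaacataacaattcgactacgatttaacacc
WRKY33 (chr2:16108001-16108234, plus strand): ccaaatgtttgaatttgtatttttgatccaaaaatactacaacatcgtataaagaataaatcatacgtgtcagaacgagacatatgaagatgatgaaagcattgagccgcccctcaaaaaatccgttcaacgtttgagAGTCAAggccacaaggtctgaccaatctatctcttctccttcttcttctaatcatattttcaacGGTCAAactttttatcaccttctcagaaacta
WRKY15 (chr2:9924694-9924818, plus strand): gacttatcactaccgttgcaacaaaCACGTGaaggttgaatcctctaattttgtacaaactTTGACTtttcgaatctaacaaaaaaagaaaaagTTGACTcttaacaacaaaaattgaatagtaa
WRKY7 (chr4:12573134-12573242, plus strand): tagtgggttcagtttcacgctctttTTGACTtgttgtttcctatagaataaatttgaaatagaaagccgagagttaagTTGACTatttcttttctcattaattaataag
WRKY11 (chr4:15290494-15290734, minus strand): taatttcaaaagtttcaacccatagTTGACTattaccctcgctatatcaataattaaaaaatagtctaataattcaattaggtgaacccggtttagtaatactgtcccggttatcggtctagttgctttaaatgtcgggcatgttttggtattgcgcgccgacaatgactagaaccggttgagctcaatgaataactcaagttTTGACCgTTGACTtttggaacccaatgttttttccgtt
WRKY17 (chr2:10438137-10438322, minus strand): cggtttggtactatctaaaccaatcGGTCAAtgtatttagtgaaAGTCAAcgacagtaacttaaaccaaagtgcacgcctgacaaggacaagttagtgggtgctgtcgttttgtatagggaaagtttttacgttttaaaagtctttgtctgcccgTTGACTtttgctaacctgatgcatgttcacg
The WRKY60 stretch is its whole WUS-GR region of 200 bp and holds 3 W-boxes, of which the last 2 overlap by 1 base. In WRKY11 an intron of 332 bp was covered over its full length and held 3 W-boxes, including TTGACC and TTGACT separated by 1 base. In WRKY7 an intron of 353 bp was likewise covered in full and held 2 W-boxes, and in WRKY17 the covered 46.4% of an intron of 491 bp held 3 of its 4. WRKY15 had no base of its 2 introns in a WUS-GR region. All coordinates are on TAIR10, counted from 1, and the sequences were read from the RefSeq assembly TAIR10.1.

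A WUS-GR region was present in the gene window of 48 of 71 members (67.6%, 95% Wilson interval 56.1 to 77.3%), against 38.1% of protein-coding genes. The gene windows were of similar length, with a median of 5610 bp for members and 5578 bp for protein-coding genes. Members also had more of their windows covered: 8.74% of all member window bases lay in WUS-GR regions, against 3.82% for protein-coding genes. At least 2 regions were found at 21 members (29.6%), against 14.2% of protein-coding genes. The median covered length per bound gene was 500 bp for members and 400 bp for protein-coding genes.

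The Col-0 RFP-trap list, which marks sites with more signal in seedlings without the transgene, touched 2 members (2.82%), close to the 2.39% of protein-coding genes. These were WRKY4, a group I gene of necrotroph defence, and WRKY69 of group IIe, each with a single window of 100 bp in coding sequence (chr1:4778901-4779000 and chr3:21715401-21715500). In WRKY69 this window directly adjoined the only WUS-GR region of the gene, which lay from 590 to 889 bp past the TSS. The other 46 bound members had no base in the Col-0 list.

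**Figure D1:**
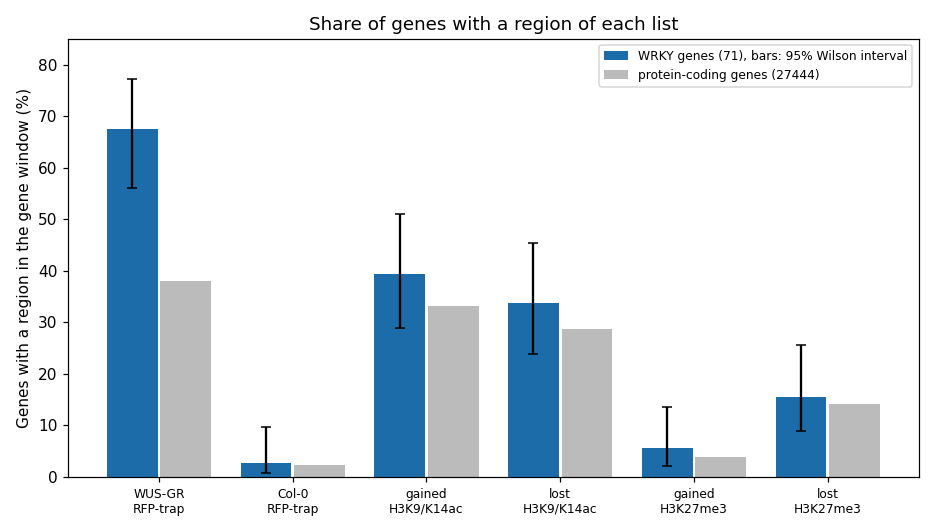
Percentage of genes (vertical axis) with at least 1 bp of a region of each list (horizontal axis) in the gene window, for 71 WRKY genes (blue, with 95% Wilson intervals) and 27444 protein-coding genes (grey). The interval of the WRKY share lies above the protein-coding share for the WUS-GR RFP-trap list (67.6% against 38.1%) and includes it for the other 5 lists.

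WUS-GR regions at members lay mostly before the gene. Of the 81 regions, 55 had their midpoint before the TSS, 7 in the 5' UTR, 6 in coding sequence, 1 in an intron and 12 past the gene end. The median midpoint was at -246.5 bp from the TSS, with the quartiles at -1136 and 222.5 bp. The TSS itself was inside a WUS-GR region in 18 members (25.4%) and in 11.3% of protein-coding genes. Coverage peaked 50 bp before the TSS, where 31% of members and 11.6% of protein-coding genes were covered. The member's own TSS was the nearest for 58 of the 81 regions, and 7 regions had their midpoint inside another protein-coding gene, so part of the binding may belong to neighbours. WRKY36, WRKY61, WRKY70 and WRKY72 were bound only past their gene end.

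**Figure D2:**
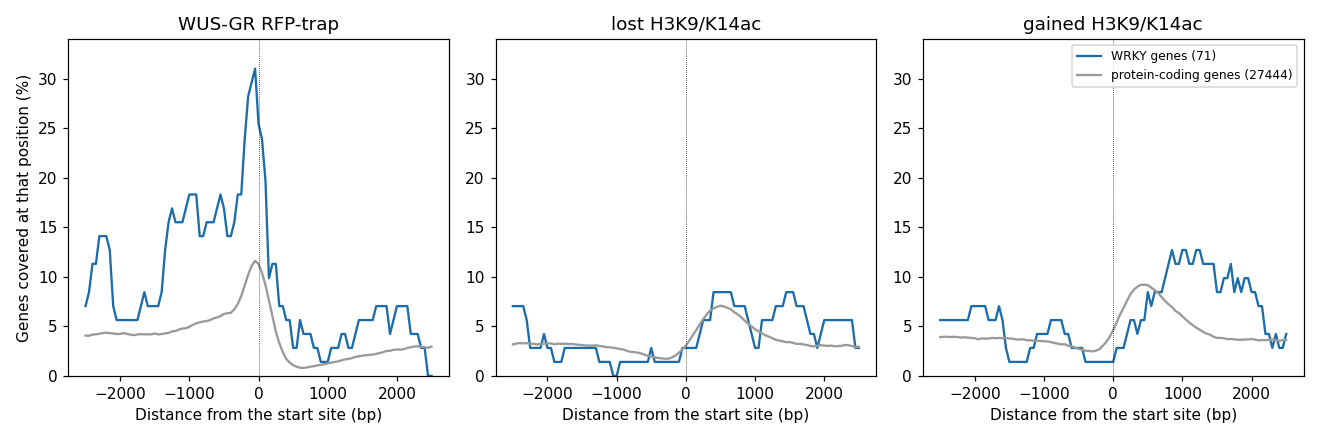
Percentage of genes covered by a region (vertical axis) at each distance from the start site (horizontal axis, bp in the sense direction) for WRKY genes (blue) and protein-coding genes (grey), in 1 panel each for WUS-GR RFP-trap, lost H3K9/K14ac and gained H3K9/K14ac. The WUS-GR curves of both sets peak at -50 bp, at 31% for WRKY genes and 11.6% for protein-coding genes.

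Group IId stood out by covered length. These genes encode calmodulin-binding WRKY proteins, and 6 of the 7 were bound, with a median of 1500 bp per gene. The medians of groups are over all their genes, with unbound genes counted as 0 bp. WRKY11, which acts with WRKY17 as a repressor of basal resistance to bacteria, had 3300 bp of its window in the WUS-GR list and 0 bp in the Col-0 list, the sixth largest value of all protein-coding genes. One region of WRKY11 ran from -1266 to 633 bp around the TSS and another from 1034 to 2433 bp, across the end of the gene (gene at chr4:15289788-15291934, minus strand). WRKY15 had 1900 bp, WRKY7 1863 bp and WRKY17 1500 bp. WRKY39 had 1100 bp and WRKY21 797 bp, each with 1 region across the TSS. Part of the covered length lay in regions with midpoints nearer to the TSS of another gene. This part was 900 bp in WRKY15, 163 and 200 bp in WRKY7 and 197 bp in WRKY21. WRKY7, WRKY11 and WRKY17 each had a region across the TSS and another in the second part of the gene, from 1363 to 2162 bp past the TSS in WRKY7 and from 1169 to 1868 bp in WRKY17. The exception was WRKY74, which had no region of any of the 6 lists.

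Group IIa, which comprises the partly redundant defence and abscisic acid regulators WRKY18, WRKY40 and WRKY60, was bound at all 3 genes. WRKY18 had 1500 bp in 2 regions (-1576 to -377 and -176 to 123 bp), WRKY40 had 1200 bp in a single region from -1060 to 139 bp, and WRKY60 had 200 bp. WRKY18 and WRKY40 were thus bound across the TSS, while the WRKY60 region ran from -661 to -462 bp.

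Group IIb was bound at 6 of 8 genes, with a median of 200 bp over all 8. WRKY6, a regulator of senescence and of phosphate transport, was the most covered, with 1526 bp in 5 regions, 2 of them past the gene end. WRKY42, which like WRKY6 represses the phosphate exporter gene PHO1, was not bound. WRKY47 had 1000 bp in a single region that ended 4 bp before its TSS.

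In group IIc 11 of 17 genes were bound. WRKY57, a gene of drought tolerance and jasmonate-dependent senescence, had 2426 bp in 4 regions and ranked 64 among all protein-coding genes. Its longest region ran from -17 to 1282 bp into the coding sequence. WRKY23 had 1200 bp, with a region of 800 bp starting at -1702 bp and another from 98 to 497 bp. WRKY28 had 800 bp, WRKY75, a gene of phosphate starvation and root hairs, 600 bp, and WRKY8 300 bp. WRKY12 and WRKY13, which act in opposite directions on flowering time, had 400 bp and 200 bp. WRKY71, a relative of WRKY8 and WRKY28 that promotes shoot branching, had none.

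Group I was bound at 10 of 15 genes, with a median of 400 bp over all 15. WRKY33 had 500 bp in 2 regions, of which the nearer ran from -234 to 65 bp. WRKY25 and WRKY26, which contribute with WRKY33 to heat tolerance, had 638 and 500 bp and also a region across the TSS. The pollen gene WRKY2 had 800 bp, and WRKY44, required for trichomes and seed coat, had 200 bp. WRKY10, which acts in the endosperm, and WRKY34, which acts in pollen, were not bound.

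Group IIe was bound at 5 of 8 genes and group III at 7 of 13. WRKY22 and WRKY29, both placed downstream of the MAP kinase cascade that follows flagellin perception, differed: WRKY22 had 1249 bp in 3 regions, and WRKY29 was not bound. The deposited H3K27me3 lists held 2 gained and 6 lost windows at WRKY29, and none was left after the removal. Among the group III genes, WRKY53, an activator of leaf senescence, had 1582 bp in 2 regions, the nearer from -318 to -19 bp. WRKY46 had 500 bp, WRKY54 300 bp and WRKY70 100 bp, the last in a single window past the gene end. WRKY54 and WRKY70 are repressors of senescence, and WRKY46 acts with WRKY53 and WRKY70 in defence.

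**Figure D3:**
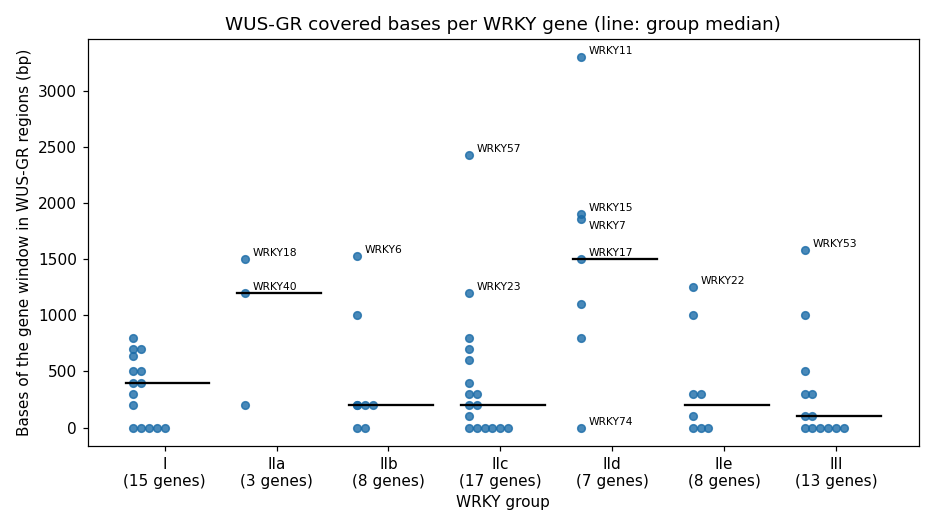
Bases of the gene window in WUS-GR RFP-trap regions (vertical axis, bp) for each of the 71 WRKY genes (points, 1 per gene) by WRKY group (horizontal axis). The line is the median over all genes of the group, bound or not. The median is 1500 bp in group IId and 1200 bp in group IIa, against 100 to 400 bp in the other groups.

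The G-box core CACGTG, searched on both strands, was present in 23 of 81 member regions (28.4%, Wilson interval 19.7 to 39%) and in 22.6% of all WUS-GR regions, so the interval included the share of the whole list. Over 500 bp before the TSS, it was present in 11.3% of members and 9.35% of protein-coding genes. Per kb there were 0.793 CACGTG in member regions, against 0.706 in all WUS-GR regions. In the parts of the member gene windows outside WUS-GR regions there were 0.136, close to the 0.122 of the nuclear genome.

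W-box words were denser in the member regions than in WUS-GR regions at large. TTGACC or TTGACT occurred in 49 of 81 member regions (60.5%, Wilson interval 49.6 to 70.4%) and in 43.3% of all WUS-GR regions, with a median region length of 300 bp in both sets. The shorter core TTGAC, which is contained in both words, was found in 69.1% of member regions (Wilson interval 58.4 to 78.1%). This interval included the 62.1% of all WUS-GR regions. There were 116 W-box words in 39100 bp of member regions, or 2.97 per kb. All WUS-GR regions had 1.62 per kb, the parts of the member windows outside these regions 1.25 per kb, and the nuclear genome 1.14 per kb. In the 500 bp before the TSS the words were about as frequent in bound members (54.2%) as in unbound members (52.2%), and they were present in 45.2% of all protein-coding genes. The density within the regions was 3.72 per kb in group IId and 2.66 per kb in the other members. WRKY11 had 15 W-boxes in its 2 regions, WRKY15 had 9, and WRKY6 and WRKY17 had 7 each. Of the 48 bound members, 33 had a W-box and 19 a CACGTG in a WUS-GR region, 16 had both and 12 neither. Such counts per gene were not made over bound protein-coding genes, so whether they are unusual was not tested. Words were counted over whole regions, also where a region ran past the gene window. All 4 W-boxes and the CACGTG of WRKY61 lay outside its window, as did some words of other members. A match is a match of letters only, occupancy by a WRKY protein was not measured, and the densities were not compared at matched distances from the TSS.

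**Figure D4:**
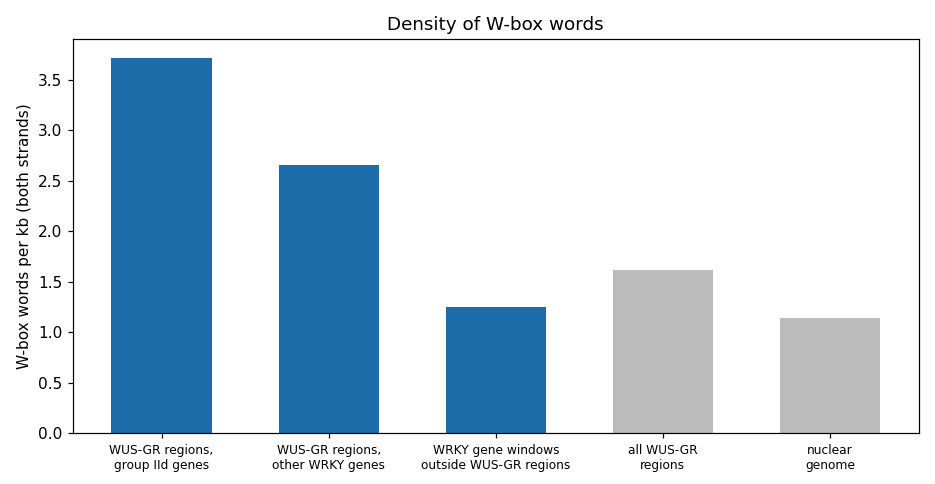
W-box words (TTGACC or TTGACT on either strand) per kb (vertical axis) in 5 sets of sequence (horizontal axis): WUS-GR regions at group IId genes, WUS-GR regions at the other WRKY genes, WRKY gene windows outside WUS-GR regions, all WUS-GR regions and the nuclear genome. The WUS-GR regions at WRKY genes have 3.72 and 2.66 words per kb, above the 1.62 of all WUS-GR regions.

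After the removal, H3K9/K14ac changed at members about as often as elsewhere. It was lost at 24 members (33.8%, Wilson interval 23.9 to 45.4%), against 28.8% of protein-coding genes. It was gained at 28 (39.4%, interval 28.9 to 51.1%), against 33.1%. With all deposited windows kept, the members' shares were higher, 53.5% against 46% for lost and 57.7% against 49.2% for gained windows. The counts that follow are again those after the removal. A WUS-GR region and a lost region in the same gene window were found at 20 members (28.2%), against 13.2% of protein-coding genes, and a WUS-GR region and a gained region also at 20, against 14.6%. Both of these shares contain the higher share of bound genes in the family. Among bound genes, a lost region was present at 41.7% of members and 34.6% of protein-coding genes, and a gained region at 41.7% and 38.3%. Among genes that were not bound, a lost region was present at 4 of 23 members (17.4%) and at 25.3% of protein-coding genes. A gained region was present at 8 of these 23 members (34.8%) and at 29.9% of protein-coding genes. These differences were not tested.

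Lost acetylation shared bases with a WUS-GR region at 5 members (7.04%), against 2.83% of protein-coding genes, counts that contain the higher share of bound genes in the family. In WRKY40 the lost list held 3 regions, and one of them, from -60 to 939 bp, overlapped the end of the WUS-GR domain by 200 bp. In WRKY18 a lost region shared 300 bp with the far end of the upstream domain, while a gained region lay in the gene from 1224 to 1723 bp. In WRKY57 the shared stretch was 500 bp of the first coding part, from 383 to 882 bp past the TSS. In WRKY64 the whole region with the 3 G-boxes (300 bp) lay inside a lost region. In WRKY9 the shared 200 bp, from -2348 to -2149 bp, lay in a neighbouring gene. WRKY53 had a lost region from -18 to 981 bp that began at the base after its WUS-GR region ended.

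Gained acetylation shared bases with a WUS-GR region at 4 members (5.63%), against 2.51% of protein-coding genes. In WRKY17 a gained region of 1500 bp over the gene body covered both of its WUS-GR regions there, 700 and 200 bp long. In WRKY25 a gained region from -1662 to 337 bp contained the WUS-GR region across the TSS, 300 bp long. In WRKY46, gained and bound sequence shared 200 bp, from -1745 to -1546 bp. In WRKY45, a gene of phosphate uptake, they shared 400 bp, from -2488 to -2089 bp. The paralogs WRKY11 and WRKY17 thus differed: WRKY11 had the longer binding and no change of acetylation in its window.

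Among the other members with known roles, WRKY6 had a lost region from -506 to -7 bp, between its WUS-GR regions. WRKY12 and WRKY13 had lost regions in the gene body, from 1093 to 1592 bp and from 393 to 892 bp. WRKY71, which was not bound, had one from 1068 to 1567 bp at its end. WRKY54 had a lost region before the gene and a gained one from 28 to 527 bp, directly after the WUS-GR region at its TSS. WRKY23 had a gained region from -902 to -403 bp, directly after its upstream WUS-GR region, and a lost one in its coding sequence. WRKY2 and WRKY44 had gained regions in the gene body, and WRKY42 had one in its coding sequence. The gained region left in the window of WRKY33 after the removal lay past the gene, in a neighbour. At WRKY33 itself the removal took out a gained window from -234 to 265 bp over the TSS and a lost one from 266 to 765 bp. It also took out a gained window from -1234 to -735 bp and a lost one from -1734 to -1235 bp. WRKY22, WRKY26, WRKY60 and WRKY70 were bound and had no histone region left after the removal, although each had gained H3K9/K14ac windows beside lost ones in the deposited lists. At WRKY22 the lost window ran from -251 to 248 bp over the TSS and the gained one from 249 to 748 bp. WRKY26 and WRKY70 also had deposited H3K27me3 windows.

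By group, lost H3K9/K14ac was found at 9 of 17 genes in group IIc, of which 7 were bound, and at 2 of 3 genes in group IIa. Gained H3K9/K14ac was found at 8 of 13 genes in group III and 7 of 15 in group I. Group IId had a lost region at 1 gene, WRKY39, and gained regions at 2, WRKY17 and WRKY39. These groups are small, and the differences between them were not tested.

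**Figure D5:**
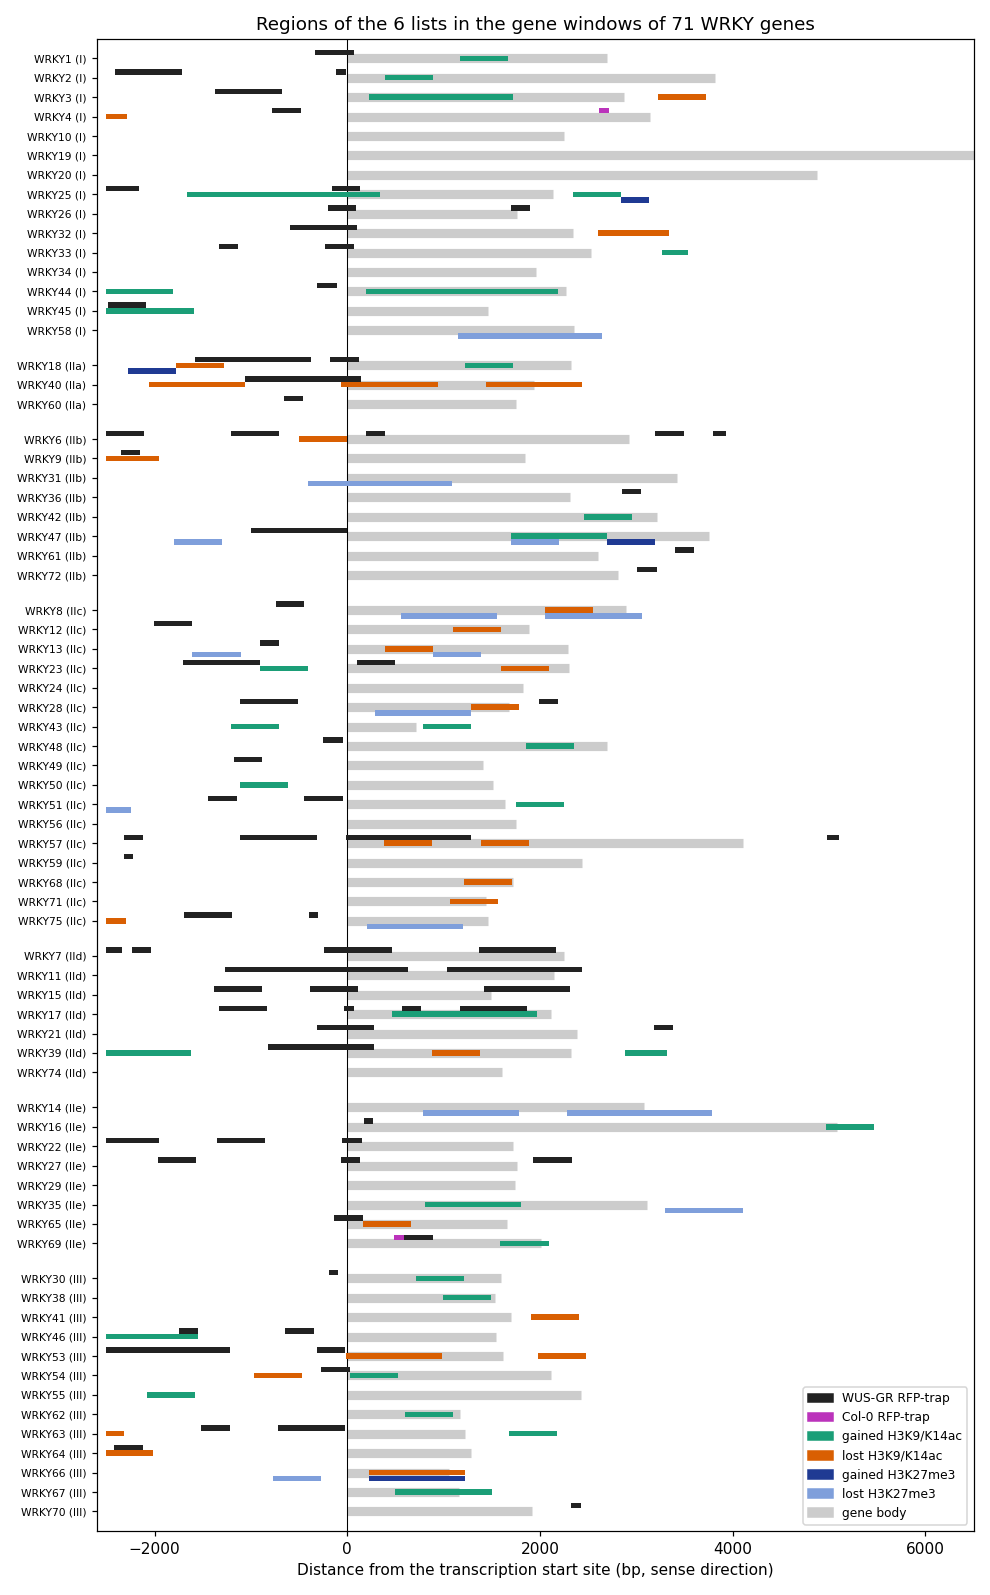
Map of the 71 WRKY genes (rows, by group) against the distance from the transcription start site (horizontal axis, bp in the sense direction), with the gene body in grey. Coloured bars are the regions inside each gene window for WUS-GR and Col-0 RFP-trap (upper track), gained and lost H3K9/K14ac (middle track) and gained and lost H3K27me3 (lower track). The gene body of WRKY19 runs past the right edge. WUS-GR regions gather just before the start site, and 8 genes have no region left after the removal of neighbouring gained and lost regions.

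H3K27me3 windows were spread unevenly over the groups. Before removal of neighbouring gained and lost regions, 38 members (53.5%) had at least 1 deposited H3K27me3 window, against 30.6% of protein-coding genes, and 31 members (43.7%) had windows of both directions, against 15%. In group IIb 7 of 8 genes and in group IIc 14 of 17 genes had such a window. Group IId, with the largest median length covered by WUS-GR regions, had one at 0 of 7 genes. In group I the count was 5 of 15, in group IIa 2 of 3, in group IIe 4 of 8 and in group III 6 of 13. Such windows were present at 23 of 48 bound members (47.9%) and at 15 of 23 unbound members (65.2%), a split not counted over protein-coding genes. For lost H3K27me3 left after the removal, the shares of bound and unbound genes were 12.5% and 21.7% for members. They were 13.4% and 14.7% for protein-coding genes, and the differences were not tested. For H3K9/K14ac, 57 members (80.3%) had a deposited window against 65.6% of protein-coding genes, and 22 members (31%) had windows of both directions against 29.6%.

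After the removal, H3K27me3 was lost at 11 members (15.5%, Wilson interval 8.88 to 25.7%), against 14.2% of protein-coding genes, and gained at 4 (5.63%), against 3.88%. The removal thus left 13 of the 38 members, and the members' shares then lay near those of all genes, whereas with all deposited windows lost ones were found at 50.7% of members against 27.6% of protein-coding genes and gained ones at 46.5% against 18.1%. Of the 11 genes with a loss, 5 were in group IIc: WRKY8, WRKY13, WRKY28, WRKY51 and WRKY75. Among bound protein-coding genes, 34.6% had a lost H3K9/K14ac region and 13.4% a lost H3K27me3 region. WRKY8, WRKY13, WRKY28 and WRKY75 combined a WUS-GR region with a loss of both H3K9/K14ac and H3K27me3, a combination not counted over all protein-coding genes. In these 4 genes the lost H3K27me3 lay in the gene body, from 556 to 1555 and from 2056 bp in WRKY8, from 287 to 1286 bp in WRKY28, from 893 to 1392 bp in WRKY13 and from 201 to 1200 bp in WRKY75. WRKY13 had a further lost region before its TSS. WRKY28 lost H3K9/K14ac from 1287 to 1786 bp, immediately after the H3K27me3 region, and WRKY8 lost both marks over the same 500 bp from 2056 to 2555 bp. In WRKY75 the lost H3K9/K14ac region ran from -3299 to -2300 bp, with its midpoint in a neighbouring gene and only 201 bp inside the gene window.

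The other losses of H3K27me3 were in WRKY14, WRKY31, WRKY35, WRKY47, WRKY58 and WRKY66. WRKY31 had one from -410 to 1089 bp across the TSS, WRKY14 had 2 in and past the gene, and WRKY58 had one of 1500 bp at its end. None of WRKY14, WRKY31, WRKY35, WRKY58 and WRKY66 was bound. The lost region in the window of WRKY51, 3000 bp long, lay mostly outside the window in a neighbouring gene. Gained H3K27me3 was found at WRKY18 (-2276 to -1777 bp), WRKY25 (past the gene, in a neighbour), WRKY47 (2697 to 3196 bp) and WRKY66 (224 to 1223 bp). In WRKY66 the gained H3K27me3 and a lost H3K9/K14ac region had the same borders.

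After the removal, no region of any list was left at 8 members: WRKY10, WRKY19, WRKY20, WRKY24, WRKY29, WRKY34, WRKY56 and WRKY74. None of them was bound, but 7 had deposited histone windows that the removal took out, and only WRKY74 was empty in all 6 lists. WRKY10, WRKY24, WRKY29 and WRKY56 had gained and lost H3K27me3 windows, WRKY19 and WRKY20 gained and lost H3K9/K14ac windows, and WRKY34 gained H3K9/K14ac windows. Tissues could not be separated, since whole seedlings were used, and a change in few cells cannot be told apart from a weak change in many.

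Genes that work with WRKY factors were counted in the same way, beside the shares of 38.1% bound, 28.8% with lost and 33.1% with gained H3K9/K14ac among protein-coding genes. Of 7 genes for VQ proteins, which bind WRKY domains, 4 were bound (57.1%), including SIB1 with 1100 bp and SIB2 with 1410 bp, the partners of WRKY33 in defence, and JAV1 with 1222 bp. Of 10 genes of the MAP kinase module upstream of WRKY22, WRKY29 and WRKY33, 6 were bound (60%), with 1100 bp at MKK9, 600 bp at MPK3 and 500 bp at MPK6, and 0 bp at MEKK1. Lost H3K9/K14ac was found at 3 of the VQ genes and 5 of the kinase genes, and gained H3K9/K14ac at 3 and 4. Of 22 genes of salicylic acid and immunity, 12 were bound (54.5%), 7 had lost and 7 had gained H3K9/K14ac (31.8% each, near the share of all genes). Receptor components led this list, with 1600 bp each at BAK1 and BIK1 and 1300 bp at FLS2, the flagellin receptor. PR1, the classical marker of salicylic acid responses, and PAD3, the WRKY33 target of camalexin synthesis, were not bound. PAD3 was empty in all 6 lists, and PR1 had only H3K27me3 regions that the removal took out.

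Beside other transcription factor families counted by symbol or synonym, the WRKY share of bound genes (67.6%) lay between that of the ERF family, with 20 of 26 genes (76.9%), and that of the NAC family, with 41 of 81 genes (50.6%). The MYB family had 60 of 125 genes (48%), and all protein-coding genes had a share of 38.1%. After the removal, lost H3K27me3 was present at 15.5% of WRKY genes, 15.4% of ERF genes, 25.9% of NAC genes and 28.8% of MYB genes. The share of protein-coding genes was 14.2%, and WRKY and ERF genes were near it under this setting. With all deposited windows kept, the WRKY share was 50.7%, against 27.6% of protein-coding genes. The ERF, NAC and MYB families were not counted in that way. These differences between families were not tested.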

How the data were processed

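ChIP-seq was done by the authors on whole WUS-GR and Col-0 seedlings. Per the labels and methods, the DNA of repeated immunoprecipitations was combined before sequencing, and reads were mapped with BWA to TAIR10. The windows of each genotype were called against the other genotype with hiddenDomains, a hidden Markov model over fixed windows. The deposited lists hold window positions, with no score and no read count, so depth and precision per window are unknown.

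From these positions, adjacent windows were merged, and gained and lost histone regions with fewer than 73 bp between them were removed, as the study's methods describe. A region counted for a gene when it shared 1 bp with the gene window. Gene models came from the RefSeq annotation of TAIR10.1, whose nuclear chromosomes have the TAIR10 lengths, with 37899 genes in all and 27444 protein-coding ones. Without replicates no test was run, and each count was set beside the same count over all protein-coding genes. Python 3.11.15, NumPy 2.4.6, SciPy 1.17.1 and matplotlib 3.10.9 were used. The counting was tested on simulated data, in which all 200 genes given a region were called.

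The members and the related gene lists were chosen with earlier results of these data known. WRKY groups followed the standard classification. Genes described with positions were the 8 members with the most WUS-GR bases, those where a WUS-GR region shared bases with changed H3K9/K14ac, those with a kept H3K27me3 region (up to 10, longest first), those with a Col-0 RFP-trap window and 25 members with well known roles. Other members were named after their values had been seen. In the immunity list NIMIN2 found no match, ICS1 and SID2 are 1 gene, and a flavonol synthase gene that shares the name FLS2 was left out. Alternatives to the gene window, the assignment of regions, their minimum length, the 73 bp removal and the choice of members were recomputed.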

Additional observations from a re-analysis of the deposited data

How the results depend on the processing

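Of 64 alternatives, 36 left a count within 1.5 times its value, or a share or median within its 95% interval. The number of bound members stayed between 37 and 48 under all alternatives tried, above the share of protein-coding genes each time where both were counted (52.1% against 23% at the lowest count). The histone counts rested on the settings. With the window limited to 2500 bp before the TSS, lost H3K9/K14ac was found at 10 members (14.1% against 13.5% of protein-coding genes). Gained H3K9/K14ac was found at 9 (12.7% against 16%), lost H3K27me3 at 5 (7.04% against 8.53%) and gained H3K27me3 at 1 (1.41% against 2.02%). Binding with lost H3K9/K14ac was found at 10 (14.1% against 4.57%) and Col-0 windows at 0 (against 1.11%). From 1000 bp before the TSS to the gene end the counts were 15 for lost H3K9/K14ac (21.1% against 19.5%) and 2 for gained H3K27me3 (2.82% against 2.34%). For binding with lost H3K9/K14ac the count was 11 (15.5% against 7.15%). With each region assigned to 1 gene the counts were 17 for gained H3K9/K14ac (23.9% against 17.9%) and 2 for gained H3K27me3 (2.82% against 1.92%). For binding with lost H3K9/K14ac the count was 12 (16.9% against 5.67%). With regions of at least 2 windows the counts were 6 for lost (8.45% against 8.21%) and 10 for gained H3K9/K14ac (14.1% against 11.7%). They were 2 for gained H3K27me3 (2.82% against 0.995%), 5 for binding with lost H3K9/K14ac (7.04% against 3.9%) and 0 for Col-0 windows (against 0.343%). With all deposited windows kept they were 38 for lost (53.5% against 46% of protein-coding genes) and 41 for gained H3K9/K14ac (57.7% against 49.2%). For H3K27me3 they were 36 for lost (50.7% against 27.6%) and 33 for gained (46.5% against 18.1%). For binding with lost H3K9/K14ac the count was 32 (45.1% against 20.8%). Under this setting H3K27me3 did not lie near the share of all genes, and the members' H3K9/K14ac shares were also above it. Over all 37899 annotated genes the background was 33.5% for WUS-GR, 28% for gained and 24.8% for lost H3K9/K14ac, and 3.53% for gained and 12.8% for lost H3K27me3. In the central 200 bp of the member regions CACGTG was present in 14.8% (14.2% of all WUS-GR regions) and TTGAC in 54.3% (43.3%). No paired analysis was possible because there was 1 list per group. The windows carry no score, so weak and strong binding cannot be separated.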
